A study of Mus musculus with 30 samples.

Results

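The fibroblast growth factor (FGF) genes described here were 10 named genes of the mouse forelimb bud. They were the ligand genes *Fgf4*, *Fgf8*, *Fgf9*, *Fgf10* and *Fgf17*, the intracellular family member *Fgf12* and the receptor genes *Fgfr1*, *Fgfr2*, *Fgfr3* and *Fgfr4*. They were chosen by name, but with earlier results of these data known. All 10 were found among the 50833 genes of the count table with 1 entry each. RNA was measured by polyA RNA-sequencing of forelimb buds after a single injection into pregnant females at embryonic stage E10.5. Wild-type Swiss Albino embryos were used throughout, embryos of both sexes were included, and each replicate was 1 pair of forelimb buds. The 10 groups held 3 libraries each and 30 libraries in all. They were DMSO controls and Wnt-C59 (C59) treated limb buds, each collected 1, 6, 12, 18 and 24 h after the injection. C59 inhibits porcupine, the enzyme that lipid-modifies WNT ligands before secretion. By the study's methods, controls received DMSO in buffered saline, whereas the vehicle of C59 also held methylcellulose and Tween-20, so the drug and its vehicle cannot be told apart.

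FGF ligands bind receptor tyrosine kinases together with heparan sulfate and signal largely through the RAS/MAP kinase cascade, which induces its own inhibitors of the Sprouty, Spred and Dusp families. In the limb bud, *Fgf4*, *Fgf8*, *Fgf9* and *Fgf17* are expressed by the apical ectodermal ridge (AER), a strip of thickened ectoderm that sustains outgrowth and distal patterning, and *Fgf8* is expressed along the entire ridge. *Fgf10* is expressed by the mesenchyme and signals back to the ectoderm through the epithelial splice form of *Fgfr2*, while *Fgfr1* is the main receptor of the mesenchyme. *Fgfr3* marks prechondrogenic condensations and *Fgfr4* marks muscle progenitors. *Fgf12* encodes an intracellular FGF homologous factor that is not secreted.

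The libraries held 18188636 to 38974885 counts. Levels are given as CPM (counts scaled to a common TMM-normalized library size), and levels of different genes are compared only as FPKM, which accounts for transcript length. Markers of limb mesenchyme (7 of 7), AER (8 of 8) and surface ectoderm (12 of 12) were detected in every group, of which *Sp6* of the AER stayed below 1 CPM. In C59 at 1 h, 2 of the 8 AER markers were below 1 CPM as group means. All replicates differed by more than sampling noise, and C59 18 h replicate 3 stood apart from its 2 partners (chi-square per degree of freedom of 47.6 and 39.9, against 4.33 between those 2). By the same measure DMSO 18 h replicate 1 stood apart to a lesser degree (17.3 and 11.6, against 3.82), so tests at 18 h are given with and without each of these libraries. C59 24 h replicate 1 also differed from its partners by 18.9 and 13.5, although those partners differed from each other by 9.56. At 6 h, genes of the Y chromosome exceeded 1 FPKM in 3 of 3 C59 and 0 of 3 DMSO libraries, so embryo sex and treatment cannot be told apart at that time point. In whole limb buds, fewer cells of a type and less RNA per cell cannot be told apart either.

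RefSeq (GRCm38.p6) gave the promoters of 7 of the 10 genes, and none for *Fgf8*, *Fgf17* and *Fgfr1*. The 250 bases before the transcription start are shown for *Fgf4* and *Fgf9*, which both fell 6 h after C59, for *Fgf10*, the mesenchymal ligand, and for *Fgfr2*, the receptor that stayed elevated from 12 h on. None of these windows overlaps an annotated exon. The RefSeq starts of *Fgf4* and *Fgf9* lie inside the longer loci given for these genes in the files, and that of *Fgfr2* lies upstream of its locus. Capitals mark the GC box GGGCGG on either strand.
*Fgf4* promoter, chr7:144861136-144861385, plus strand: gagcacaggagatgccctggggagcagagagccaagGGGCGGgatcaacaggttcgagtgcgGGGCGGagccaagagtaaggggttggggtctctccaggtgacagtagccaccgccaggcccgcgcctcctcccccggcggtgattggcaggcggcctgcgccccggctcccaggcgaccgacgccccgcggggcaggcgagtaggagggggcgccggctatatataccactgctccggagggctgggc
*Fgf9* promoter, chr14:58072436-58072685, plus strand: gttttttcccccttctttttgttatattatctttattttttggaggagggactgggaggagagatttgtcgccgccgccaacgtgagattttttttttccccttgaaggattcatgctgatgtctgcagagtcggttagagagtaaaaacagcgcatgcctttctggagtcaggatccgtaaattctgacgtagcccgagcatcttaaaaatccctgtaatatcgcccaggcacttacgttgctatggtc
*Fgf10* promoter, chr13:118714449-118714698, plus strand: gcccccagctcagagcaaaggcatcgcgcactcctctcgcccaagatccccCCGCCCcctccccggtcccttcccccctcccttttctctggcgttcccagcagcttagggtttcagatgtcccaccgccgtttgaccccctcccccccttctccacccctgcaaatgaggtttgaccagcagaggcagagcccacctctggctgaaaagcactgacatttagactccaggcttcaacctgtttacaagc
*Fgfr2* promoter, chr7:130266809-130267058, minus strand: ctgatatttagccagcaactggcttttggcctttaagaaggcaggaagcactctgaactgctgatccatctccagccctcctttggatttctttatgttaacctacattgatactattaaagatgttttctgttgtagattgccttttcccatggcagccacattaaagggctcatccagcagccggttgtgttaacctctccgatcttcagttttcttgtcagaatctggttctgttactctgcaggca

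The 3 motifs searched on both strands were the GC box, the TATA box TATAAA and the TCF/LEF core CTTTGA, the motif of the transcription factors that pair with beta-catenin. The *Fgf4* window held 2 GC boxes, which began 214 and 188 bases before the start, and had a GC content of 71.2%. The *Fgf10* window held 1 GC box at 199 bases with a GC content of 61.2%, and the *Fgf9* (44.8%) and *Fgfr2* (44.0%) windows held none. Neither CTTTGA nor TATAAA occurred in any of the 11 windows of the 7 genes. Only these exact letters were searched. Variants, such as the TATA-like stretch tatatata near the end of the *Fgf4* window, were therefore not counted or marked. The study found beta-catenin mostly at regions far from transcription starts, which these windows do not cover. Among 32817 windows of the same length over all genes, 32.7% held GGGCGG, 13.8% CTTTGA and 12.4% TATAAA.

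The first question was how many of the genes responded to C59 at each time point. At 1 h, 2 of 10 tested genes passed the test (quasi-likelihood F test of edgeR, p adjusted over all genes below 0.05), with *Fgf4* higher and *Fgf10* lower, and among all genes 1.14% were higher and 1.61% lower. At 6 h 4 of 10 passed, *Fgfr4* higher and *Fgf4*, *Fgf8* and *Fgf9* lower, while 8.2% of all genes were higher and 11.4% lower. At 12 h 7 of 9 passed. All 4 receptors were higher and *Fgf8*, *Fgf9* and *Fgf10* lower, at a background of 22% higher and 25.5% lower genes, and *Fgf4* was below the filter on low counts. At 18 h 5 of 10 passed (*Fgf12* and *Fgfr2* higher, *Fgf8*, *Fgf9* and *Fgfr4* lower), against 3.46% and 3.62% of all genes, and 6 passed without C59 18 h replicate 3 and 1 (*Fgfr4*) without DMSO 18 h replicate 1. Without these libraries 7.01% and 0.765% of all genes were higher and 9.2% and 1.34% lower. At 24 h 4 of 9 passed (*Fgfr2* and *Fgfr3* higher, *Fgf10* and *Fgfr4* lower), against 2.88% and 3.56%, and *Fgf4* was again below the filter. *Fgf17* passed at no time point. The effect of C59 itself differed between neighboring times for 4 of 10 genes from 6 to 12 h, for 4 from 12 to 18 h and for 1 from 18 to 24 h, against 18.1%, 8.49% and 6.96% of all genes. These contrasts share the 12 and 18 h libraries.

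With the further requirement of an absolute log2 fold change above 1, which the study also used, 3 genes were called at 6 h (*Fgf4*, *Fgf8*, *Fgfr4*), 1 at 12 h (*Fgf8*), 1 at 18 h (*Fgf12*) and 0 at the first and last times. From the first to the last time the same rule called 0.283%, 1.17%, 4.95%, 1.29% and 0.819% of all genes tested. At an unadjusted p below 0.05, 2 genes passed at 1 h and 6 of 9 at 24 h, and DESeq2 with the same fold rule also called 0 at both times. *Fgf4*, *Fgf8*, *Fgfr4* and *Fgf12* belong to gene panels that the study picked from these samples, so their direction is not independent evidence. Over the tested FGF genes the median log2 fold change was -0.05, -0.03, 0.16, -0.22 and 0.17 at the 5 successive times, and that of all genes lay between 0.001 and 0.017.

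**Figure D1:**
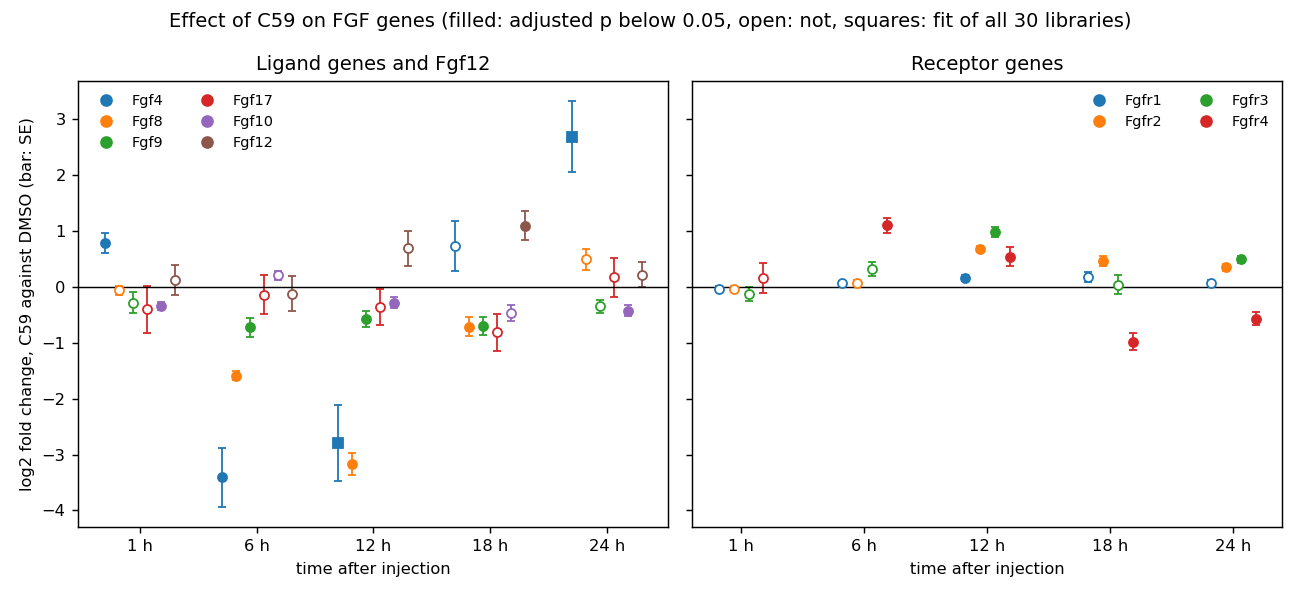
Log2 fold change of C59 against DMSO (vertical axis, bars are SE) at each time after injection (horizontal axis) for the 6 FGF genes (left) and the 4 receptor genes (right). Filled symbols have an adjusted p below 0.05, and squares show *Fgf4* at 12 and 24 h from the fit of all 30 libraries. *Fgf4* and *Fgf8* fell furthest among the ligands at 6 h, and at 12 h the 4 receptors lay above 0.

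*Fgf8* (ENSMUSG00000025219, mm10 chr19:45736798-45742915, minus strand), the ligand gene of the entire AER, fell within 6 h of C59 and was at its lowest at 12 h. In DMSO limb buds it declined as development proceeded, from 43.2, 40.9 and 35.1 CPM at 1 h to 6.64, 7.85 and 7.21 CPM at 24 h. At 1 h the C59 libraries stood at 38.4, 36.6 and 38.8 CPM, within the range of the controls. At 6 h the DMSO libraries held 36.4, 32.5 and 33.5 CPM and the C59 libraries 10.9, 11.2 and 11.9 CPM. All 3 C59 libraries lay far below the lowest control, and the mean had dropped to 33.1% of the control (log2 fold change -1.59 ± 0.08 SE, adjusted p 1.68e-08). At 12 h the DMSO libraries held 23.5, 19.4 and 24.6 CPM and the C59 libraries 2.89, 1.56 and 3.13 CPM. This was the largest fall of *Fgf8*, to 11.1% of the control (-3.17 ± 0.20, adjusted p 1.47e-06).

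*Fgf8* then recovered in C59 limb buds while it kept declining in controls. At 18 h the C59 libraries held 10.7, 6.79 and 8.44 CPM and the DMSO libraries 14.7, 12.8 and 15.7 CPM, which did not overlap (-0.71 ± 0.17, adjusted p 0.0432). The call was lost without DMSO 18 h replicate 1 (adjusted p 0.14), replicate 2 (0.0813) or replicate 3 (0.173) and without C59 18 h replicate 2 (0.121), but held without the deviating C59 replicate 3 (-0.69 ± 0.19, adjusted p 0.0393). At 24 h the C59 libraries held 10.8, 12.6 and 6.88 CPM, and their range overlapped that of the controls (0.49 ± 0.19, adjusted p 0.141). The C59 libraries spread widely at that time, and without C59 24 h replicate 3 the difference passed (0.70, adjusted p 0.0118). The effect of C59 on *Fgf8* itself changed between neighboring times, by -1.59 ± 0.21 from 6 to 12 h, by 2.47 ± 0.30 from 12 to 18 h and by 1.19 ± 0.29 from 18 to 24 h (edgeR interaction contrasts, adjusted p 0.00011, 0.000273 and 0.0238).

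*Fgf4* (ENSMUSG00000050917, mm10 chr7:144847367-144865243, plus strand), the posterior AER ligand gene whose domain is maintained by SHH signaling, was rare in all groups. At 1 h the DMSO libraries held 3.04, 3.43 and 2.31 CPM and the C59 libraries 5.15, 4.78 and 4.94 CPM. The groups did not overlap and *Fgf4* was 1.71-fold higher (0.78 ± 0.18, adjusted p 0.0338). With all 30 libraries in one fit the adjusted p was 0.266. The call was also lost without DMSO 1 h replicate 1 (0.0741) or 3 (0.0767) and without C59 1 h replicate 1 (0.125), 2 (0.0863) or 3 (0.0842).

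At 6 h *Fgf4* was nearly undetected in C59 limb buds. The DMSO libraries held 29, 21 and 39 counts (1.204, 1.09 and 2.30 CPM) and the C59 libraries 3, 1 and 5 counts (0.130, 0.0491 and 0.225 CPM). The C59 level was 9.41% of the control (-3.41 ± 0.52, adjusted p 0.000429), and without 1 library the log2 fold change lay between -3.95 and -3.03. Counts this low set the precision, and on the log2(FPKM + 1) and log2(FPKM + 0.1) scales, which compress rare genes, the values were -0.42 and -1.82. At 12 h the libraries held 14, 7 and 11 counts in DMSO and 2, 3 and 0 in C59, of which a count of 0 allows up to 0.138 CPM. Too few counts remained for the fit of that time point alone, and the fit of all 30 libraries gave -2.79 ± 0.68 (adjusted p 0.00147).

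At the later times the order of the *Fgf4* levels turned. At 18 h the C59 libraries held 1.22, 0.450 and 0.911 CPM and the DMSO libraries 0.433, 0.401 and 0.810 CPM, which overlapped (0.73 ± 0.45, adjusted p 0.353). It was 0.69 (adjusted p 0.395) without C59 18 h replicate 3 and 0.63 (0.557) without DMSO 18 h replicate 1. At 24 h the DMSO libraries held 1, 1 and 4 counts and the C59 libraries 8, 18 and 15 counts, all 3 above the highest control. This difference was 2.69 ± 0.63 in the fit of all 30 libraries (adjusted p 0.0113) and 2.71 ± 0.69 without a filter on low counts (adjusted p 0.0209), and DESeq2 gave no adjusted p. From 12 to 18 h the effect on *Fgf4* changed by 3.52 ± 0.85 (edgeR interaction contrast, adjusted p 0.0211), which was lost without DMSO 12 h replicate 1 (0.063), DMSO 12 h replicate 3 (0.0559), C59 12 h replicate 3 (0.0538) or DMSO 18 h replicate 2 (0.0559). *Shh*, the hedgehog ligand gene of the posterior mesenchyme, was 0.179 CPM in C59 and 12.2 CPM in DMSO limb buds at 12 h (-6.09 ± 0.32, adjusted p 5.54e-07). At 18 h *Shh* still passed as lower without C59 18 h replicate 3 and also without DMSO 18 h replicate 1, while *Fgf4* passed in neither fit. At 24 h *Shh* was 0.841 CPM in C59 and 0.898 CPM in DMSO (-0.06 ± 0.48, adjusted p 0.958).

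*Fgf9* (ENSMUSG00000021974, mm10 chr14:58070547-58112720, plus strand), expressed in the AER and other epithelia of the embryo, followed the opposite course in development. Its DMSO level climbed from 3.75, 5.05 and 4.16 CPM at 1 h to 16.8, 13.8 and 15.9 CPM at 24 h. The C59 levels also lay higher at later times, but below the controls of the same time. At 6 h the C59 libraries held 5.31, 5.79 and 3.47 CPM against 8.18, 8.13 and 7.56 CPM, at 12 h 8.17, 8.11 and 6.02 CPM against 11.1, 11.8 and 10.52 CPM, and at 18 h 10.01, 10.7 and 7.34 CPM against 15.1, 14.1 and 17.0 CPM. At all 3 times each C59 library lay below every control, and *Fgf9* was lowered to 60.6% (-0.72 ± 0.17, adjusted p 0.00962), 66.8% (-0.58 ± 0.14, adjusted p 0.00577) and 61.6% (-0.70 ± 0.16, adjusted p 0.0333) of the DMSO level.

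The call of *Fgf9* at 18 h was lost without DMSO 18 h replicate 1 (adjusted p 0.108), 2 (0.0748) or 3 (0.154) and without C59 18 h replicate 1 (0.0546) or 2 (0.0571), while it was -0.55 ± 0.12 (adjusted p 0.0171) without C59 18 h replicate 3. At 24 h the C59 libraries held a mean of 12.1 ± 1.42 CPM (SD, from 252, 324 and 273 counts) and did not overlap the controls, but the difference missed the threshold (-0.35 ± 0.11, adjusted p 0.0855). For *Fgf9* none of the changes of the effect between neighboring times from 6 h on passed. The interaction contrasts were 0.14 ± 0.23, -0.11 ± 0.22 and 0.34 ± 0.20 (adjusted p 0.73, 0.803 and 0.332).

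*Fgf17* (ENSMUSG00000022101, mm10 chr14:70636203-70642268, minus strand), the fourth AER ligand gene, lay between 0.421 and 1.36 CPM in all 30 libraries, with 9 to 36 counts each. The largest gap was at 18 h, where the C59 libraries held 0.421, 0.649 and 0.671 CPM and the DMSO libraries 1.298, 0.963 and 0.865 CPM. The groups did not overlap, but the difference was not detectable at this depth (-0.81 ± 0.33, adjusted p 0.173; -0.93 and 0.141 without C59 18 h replicate 3, -0.65 and 0.374 without DMSO 18 h replicate 1).

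**Figure D2:**
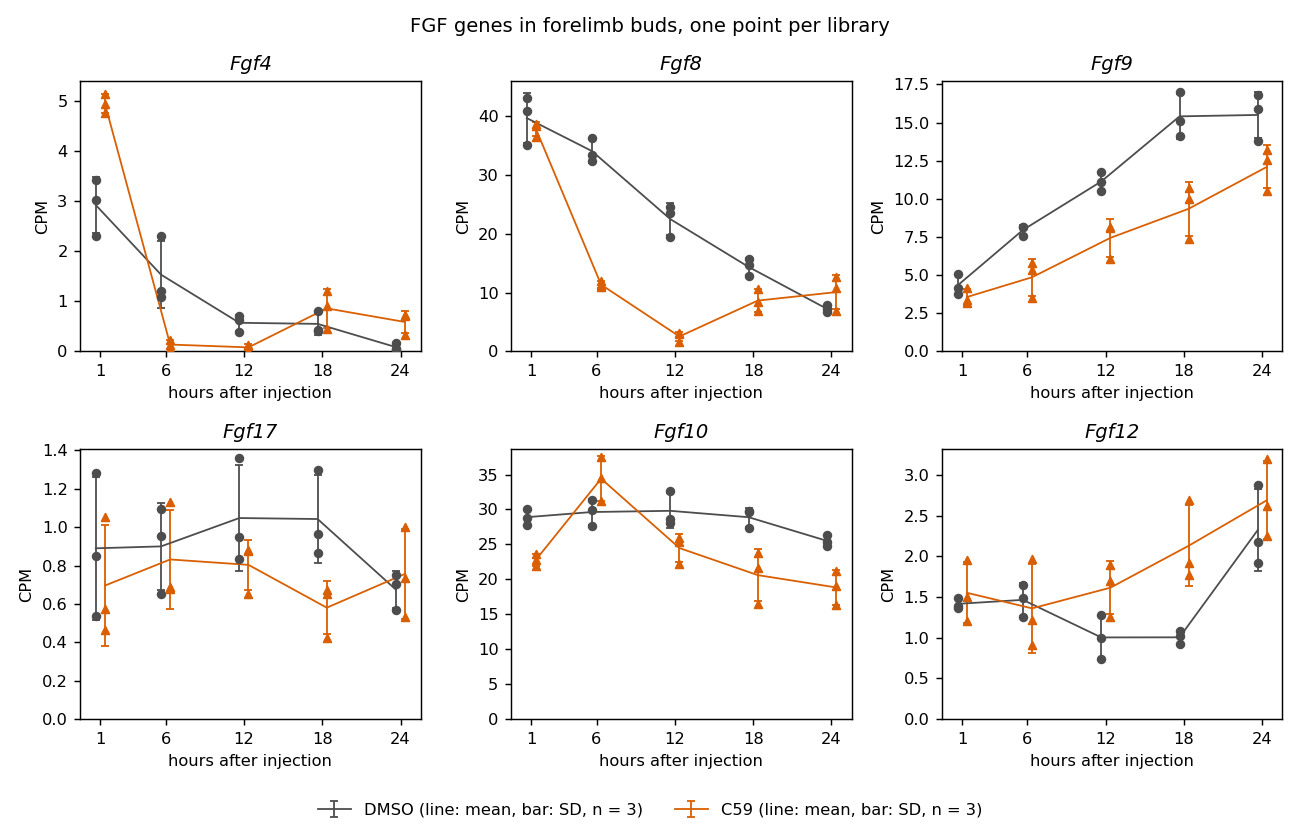
CPM (vertical axis, linear from 0) of the 6 FGF genes in every library against hours after injection (horizontal axis), with circles for DMSO and triangles for C59. Lines join group means and bars are SD (n = 3). *Fgf8* fell to 1.56 to 3.13 CPM in the C59 libraries at 12 h, *Fgf9* was higher at the later times in both arms, and *Fgf17* overlapped at all times but 18 h.

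Since *Fgf8* and *Fgf9* moved in opposite directions with time, the makeup of the RNA of the AER ligand genes in whole limb buds shifted. *Fgf9* RNA of other epithelia was not separated from that of the AER. As FPKM, *Fgf4*, *Fgf8*, *Fgf9* and *Fgf17* together summed to 27.5 ± 3.36 (SD, n = 3) in DMSO limb buds at 1 h, of which *Fgf8* held 91.6% ± 1.20. At 24 h the sum was 9.53 ± 0.206, with 47.0% ± 6.77 from *Fgf8* and 49.5% ± 6.59 from *Fgf9*. C59 lowered the sum to 9.19 ± 0.375 at 6 h, against 24.5 ± 2.46 in controls, and to 4.15 ± 0.340 at 12 h, against 18.5 ± 1.92. The libraries of the 2 arms did not overlap at these times.

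At 12 h the C59 libraries drew 21.8 to 44.6% of that sum from *Fgf8*, against 76.4 to 80.7% in DMSO, and 47.4 to 67.6% from *Fgf9*, against 16.0 to 21.1%. By 18 h the share of *Fgf8* was 52.5 to 70.1% in C59 and 62.5 to 63.4% in DMSO, which overlapped, although the sum was still lower (8.46 to 10.4 against 12.9 to 15.2 FPKM). Without C59 18 h replicate 3 both C59 ranges were the same, and without DMSO 18 h replicate 1 the DMSO ranges were 62.5 to 62.9% and 12.9 to 14.7 FPKM. At 24 h both the sum (9.51 to 13.0 against 9.30 to 9.70 FPKM) and the share of *Fgf8* (48.1 to 64.7% against 42.6 to 54.8%) overlapped. These sums and shares were not tested.

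**Figure D3:**
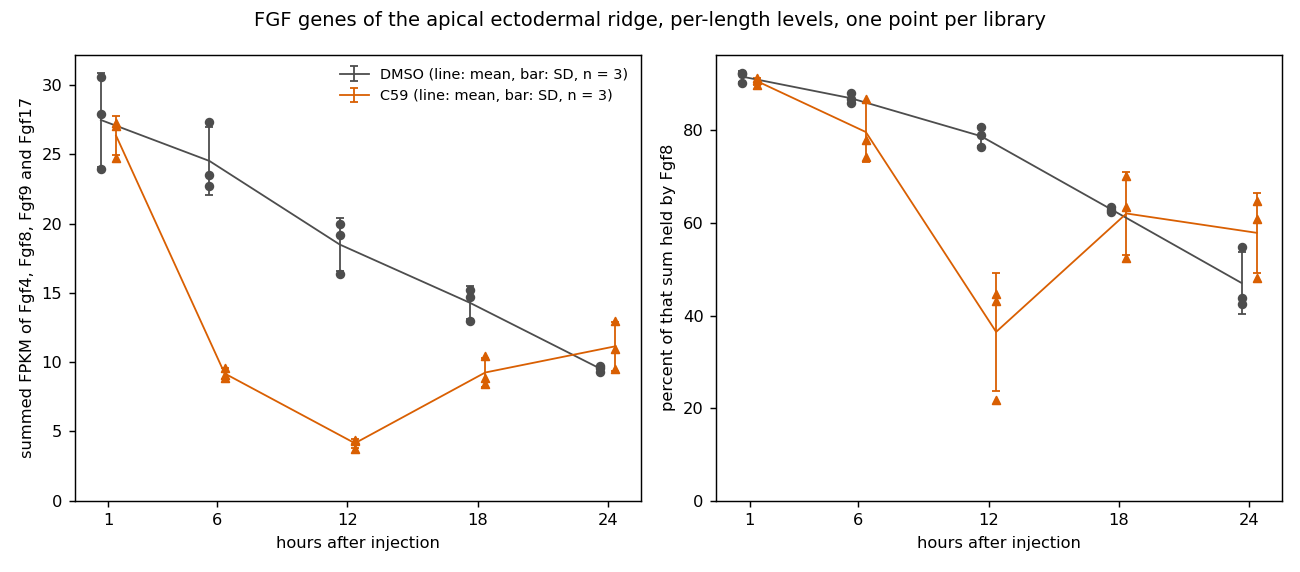
Summed FPKM of *Fgf4*, *Fgf8*, *Fgf9* and *Fgf17* (left) and the percent of that sum held by *Fgf8* (right) in every library against hours after injection, with circles for DMSO, triangles for C59, lines through group means and SD bars (n = 3). Both axes start at 0. The C59 sum was lowest at 12 h, when the share of *Fgf8* was 36.5% ± 12.7 against 78.7% ± 2.17 in DMSO.

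Other AER markers were also lower in C59, but no turn like that of *Fgf8* and *Fgf4* from 12 to 18 h was detected for them. Of the markers listed next, the study also used *Msx2* as a target gene of BMP signaling in limb buds. The summed CPM of the 8 AER markers (*Dlx5*, *Dlx6*, *Sp6*, *Sp8*, *Sp9*, *Rspo2*, *Bambi* and *Msx2*) was 108 to 120 in C59 and 155 to 178 in DMSO at 6 h, 96.2 to 127 against 147 to 158 at 12 h, 93.8 to 105 against 137 to 140 at 18 h and 128 to 130 against 139 to 147 at 24 h. Of 7 tested AER markers, 4, 3, 4 and 1 fell at 6, 12, 18 and 24 h, where 11.4%, 25.5%, 3.62% and 3.56% of all genes were lower, and no AER marker was at 0. At 18 h 5 fell without C59 18 h replicate 3 and 0 without DMSO 18 h replicate 1 (5 at an unadjusted p below 0.05). From 12 to 18 h, when the effects on *Fgf8* and *Fgf4* turned upward, the change passed for 0 of 7 AER markers (1 at an unadjusted p below 0.05). Their median change was -0.16. From 18 to 24 h the median change was 0.31. Of the 7 markers, 1 then passed upward and 1 downward (4 at an unadjusted p below 0.05), against 6.96% of all genes in either direction. Without C59 18 h replicate 3 these numbers were 2 and 1, and without DMSO 18 h replicate 1 they were 1 and 0. *Sp8*, a zinc finger factor of the AER, fell by 0.59 at 6 h on the log2 scale (SE 0.10, adjusted p 0.00127), and the median of the list was -0.60 at 6 h and -0.44 at 12 h. The markers of surface ectoderm went the other way, with 9 of 12 higher at 12 h and 7 of 12 at 18 h, against 22% and 3.46% of all genes (9 without C59 18 h replicate 3 and 2 without DMSO 18 h replicate 1, summed CPM 477 to 658 against 361 to 397 at 12 h). At 24 h 4 of 12 surface ectoderm markers were higher, against 2.88% of all genes (summed CPM 523 to 569 against 431 to 446 in DMSO). The part of these cell types in the *Fgf4*, *Fgf8* and *Fgf9* results was not tested.

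*Fgf10* (ENSMUSG00000021732, mm10 chr13:118714699-118792115, plus strand), the mesenchymal ligand gene, showed small differences at several times. At 1 h the C59 libraries held 22.8, 22.0 and 23.6 CPM and the DMSO libraries 27.8, 28.8 and 30.1 CPM, without overlap (-0.34 ± 0.07, adjusted p 0.0139). The call was lost without C59 1 h replicate 1 (adjusted p 0.066) or 2 (0.0773) and with all 30 libraries in one fit (0.111). At 6 h the order was opposite, with 34.5, 31.2 and 37.5 CPM in C59 and 29.9, 27.7 and 31.4 CPM in DMSO, which overlapped (0.21 ± 0.08, adjusted p 0.0729). Without C59 6 h replicate 2 this difference passed (adjusted p 0.0347). At 12 h *Fgf10* was lower again, at 22.2, 25.9 and 25.4 CPM against 28.1, 28.7 and 32.7 CPM (-0.28 ± 0.09, adjusted p 0.024), a call that was lost without DMSO 12 h replicate 3 (0.099) or C59 12 h replicate 1 (0.0904).

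Later, *Fgf10* stayed below the controls. At 18 h the C59 libraries held 23.8, 21.6 and 16.4 CPM against 27.3, 29.7 and 29.7 CPM in DMSO, which missed the threshold (-0.47 ± 0.14, adjusted p 0.0796). The low value was that of C59 18 h replicate 3, and without it the smaller difference passed (-0.33 ± 0.09, adjusted p 0.0329). Without DMSO 18 h replicate 1 it did not (-0.51, adjusted p 0.165). At 24 h *Fgf10* stood at 16.3, 19.0 and 21.2 CPM against 24.8, 25.4 and 26.4 CPM, 74.0% of the control (-0.43 ± 0.10, adjusted p 0.0203). Leaving out DMSO 24 h replicate 1, 2 or 3 raised the adjusted p to 0.0699, 0.0658 and 0.0863. Between 6 and 12 h the effect changed by -0.49 ± 0.12 (edgeR interaction contrast, adjusted p 0.00988). *Fgf10* overlaps the antisense gene Gm16263 in exons and the strand of counting was not stated, so reads of the 2 genes cannot be told apart.

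*Fgf12* (ENSMUSG00000022523, mm10 chr16:28160098-28753068, minus strand), the intracellular member, passed only at 18 h. The C59 libraries then held 1.78, 2.697 and 1.92 CPM and the DMSO libraries 0.920, 1.02 and 1.08 CPM, a 2.13-fold difference without overlap (1.09 ± 0.26, adjusted p 0.0393). Without C59 18 h replicate 3 it still passed (adjusted p 0.0306). The call was lost without DMSO 18 h replicate 1 (0.125), 2 (0.126) or 3 (0.131) and without C59 18 h replicate 1 (0.0509) or 2 (0.137), and on the log2(FPKM + 1) scale the value was 0.37. At 12 h the values were 1.25, 1.89 and 1.70 CPM in C59 and 0.998, 1.28 and 0.735 CPM in DMSO (0.69 ± 0.31, adjusted p 0.0876).

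The receptor genes passed mostly as higher. *Fgfr2* (ENSMUSG00000030849, mm10 chr7:130162451-130266263, minus strand), which carries the signals of FGF10 in ectoderm and of AER ligands in mesenchyme, was the steadiest. Its DMSO libraries held 109, 109 and 107 CPM at 6 h and its C59 libraries 119, 108 and 115 CPM, which overlapped (0.07 ± 0.05, adjusted p 0.346). At 12 h the C59 libraries rose to 165, 155 and 155 CPM against 101, 97.0 and 97.4 CPM, all well above the controls (1.60-fold, 0.68 ± 0.05, adjusted p 1.88e-06). The effect grew by 0.61 ± 0.06 from 6 to 12 h (edgeR interaction contrast, adjusted p 1.12e-05). *Fgfr2* was still higher at 18 h, at 141, 159 and 144 CPM against 110, 109 and 106 CPM (0.47 ± 0.09, adjusted p 0.0166), and at 24 h, at 153, 168 and 164 CPM against 130, 121 and 130 CPM (0.35 ± 0.06, adjusted p 0.00422).

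The groups of *Fgfr2* did not overlap at 12, 18 or 24 h. The 18 h call was lost without DMSO 18 h replicate 1 (adjusted p 0.0626), 2 (0.079) or 3 (0.11) or C59 18 h replicate 2 (0.0797), and without C59 18 h replicate 3 it was 0.48 ± 0.07 (adjusted p 0.00319). Counts per gene do not separate the epithelial and mesenchymal splice forms of this receptor. The median log2 fold change of the 12 surface ectoderm markers was 0.43, 0.44 and 0.2 at 12, 18 and 24 h. At 18 h it was 0.44 without C59 18 h replicate 3 and 0.41 without DMSO 18 h replicate 1. The part of this cell type in the *Fgfr2* result was not tested.

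*Fgfr3* (ENSMUSG00000054252, mm10 chr5:33721674-33737068, plus strand), the receptor gene of cartilage condensations, was higher under C59 at 12 and 24 h but not at 18 h. At 12 h the C59 libraries held 37.5, 30.1 and 31.9 CPM and the DMSO libraries 16.2, 16.9 and 17.1 CPM, a 1.98-fold difference (0.98 ± 0.09, adjusted p 1.46e-05). The lowest C59 library was above the highest control by a wide margin. At 18 h the DMSO libraries spread from 21.2 to 35.1 CPM and enclosed the C59 libraries at 26.2, 29.8 and 27.0 CPM (0.04 ± 0.17, adjusted p 0.921; 0.05 ± 0.18 without C59 18 h replicate 3). The highest control was DMSO 18 h replicate 1, and without it the difference was 0.25 ± 0.13 (adjusted p 0.37). At 24 h C59 was again higher, at 43.9, 48.5 and 48.1 CPM against 32.4, 32.4 and 35.7 CPM (0.49 ± 0.07, adjusted p 0.00265). At 6 h the values were 21.1, 18.7 and 14.9 CPM against 14.1, 14.1 and 15.6 CPM (0.32 ± 0.12, adjusted p 0.0694), and without C59 6 h replicate 3 the difference passed (adjusted p 0.0133).

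The effect on *Fgfr3* changed by 0.66 ± 0.16 from 6 to 12 h and by -0.95 ± 0.21 from 12 to 18 h (edgeR interaction contrasts, adjusted p 0.00897 and 0.013). The latter was -0.73 (adjusted p 0.0161) without DMSO 18 h replicate 1. Of the 6 chondroprogenitor markers 5, 3 and 2 were higher at 12, 18 and 24 h, so that they also stood above controls at 18 h, when *Fgfr3* did not. Among all genes 22%, 3.46% and 2.88% were higher, and at 18 h 4 markers passed without C59 18 h replicate 3 and 1 without DMSO 18 h replicate 1. Their summed CPM was 1650 to 2360 in C59 and 868 to 929 in DMSO at 12 h, 1470 to 1800 against 968 to 1100 at 18 h and 1390 to 1570 against 1160 to 1310 at 24 h. *Sox9*, the transcription factor that starts cartilage differentiation, was 601 CPM against 264 CPM at 12 h (1.18 ± 0.08, adjusted p 1.89e-06) and 296 against 241 CPM at 18 h (0.32 ± 0.13, adjusted p 0.183; 0.45 and 0.00256 without C59 18 h replicate 3, 0.35 and 0.287 without DMSO 18 h replicate 1). Their part in the *Fgfr3* result was not tested. *Fgfr3* overlaps G630022F23Rik on the opposite strand.

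*Fgfr4* (ENSMUSG00000005320, mm10 chr13:55152640-55168759, plus strand), the receptor gene of muscle progenitors, first rose and then fell relative to controls. At 6 h the C59 libraries held 12.1, 10.9 and 9.78 CPM and the DMSO libraries 4.49, 5.001 and 5.90 CPM, a 2.14-fold difference (1.10 ± 0.14, adjusted p 0.00012). On the log2(FPKM + 1) scale this difference was 0.65. At 12 h they held 16.8, 14.8 and 10.9 CPM against 10.7, 10.6 and 7.92 CPM (0.54 ± 0.17, adjusted p 0.0228), and the lowest C59 library was just above the highest control. This call was lost without DMSO 12 h replicate 3 (adjusted p 0.0911) or C59 12 h replicate 1 (0.0712) or 2 (0.0621).

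The order had reversed at 18 h. The DMSO libraries had climbed to 23.5, 18.8 and 18.2 CPM, while the C59 libraries held 8.89, 10.1 and 11.3 CPM, 50.8% of the control (-0.98 ± 0.15, adjusted p 0.00645). It was -1.07 ± 0.14 (adjusted p 0.00236) without C59 18 h replicate 3 and -0.86 ± 0.14 (adjusted p 0.0346) without DMSO 18 h replicate 1. The effect changed by -1.51 ± 0.24 from 12 to 18 h (edgeR interaction contrast, adjusted p 0.00194). At 24 h *Fgfr4* stood at 13.2, 11.7 and 14.7 CPM against 20.2, 16.9 and 22.0 CPM (-0.57 ± 0.12, adjusted p 0.0144), without overlap, and the call was lost without DMSO 24 h replicate 1 (0.066) or 3 (0.0725) or C59 24 h replicate 2 (0.0502).

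The muscle progenitor markers were lower together with *Fgfr4* at 18 and 24 h, but not higher as a list at 12 h, when their median was -0.93. The summed CPM of the 7 markers was 170 to 180 in C59 and 138 to 154 in DMSO at 6 h, 140 to 181 against 154 to 167 at 12 h, 146 to 184 against 214 to 228 at 18 h and 197 to 228 against 253 to 280 at 24 h. At 6 h 2 of 7 rose and 1 fell, at 12 h 2 rose and 4 fell, and at 18 and 24 h 4 fell and none rose. Among all genes 8.2% and 22% were higher at 6 and 12 h, and 11.4%, 25.5%, 3.62% and 3.56% were lower at 6, 12, 18 and 24 h. At 18 h 5 fell without C59 18 h replicate 3 and 5 without DMSO 18 h replicate 1. *Pax3*, which marks migrating progenitors, fell by 0.80 at 6 h and by 2.04 at 12 h on the log2 scale, while the differentiation factor *Myog* was higher by 1.03 and 1.56. No marker of the list was at 0, and the part of this cell type in the *Fgfr4* result was not tested.

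*Fgfr1* (ENSMUSG00000031565, mm10 chr8:25513654-25575718, plus strand), the main receptor of the mesenchyme, was the most stable and most abundant of the 10 genes. It ranged from 377 to 507 CPM over the 30 libraries. It passed only at 12 h, at 491, 461 and 427 CPM in C59 against 419, 405 and 412 CPM in DMSO (1.12-fold, 0.16 ± 0.05, adjusted p 0.0263), and the call was lost without DMSO 12 h replicate 1 (0.0623), 2 (0.0773) or 3 (0.0635) or C59 12 h replicate 1 (0.0563). At 18 h the highest value, 507 CPM, was that of C59 18 h replicate 3, all 3 C59 libraries lay above the controls, and the difference was 0.18 ± 0.09 with it (adjusted p 0.266) and 0.11 ± 0.06 without it (adjusted p 0.218). Without DMSO 18 h replicate 1 it was 0.22 (adjusted p 0.325). *Fgfr1* overlaps the antisense gene Gm16159 in exons.

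**Figure D4:**
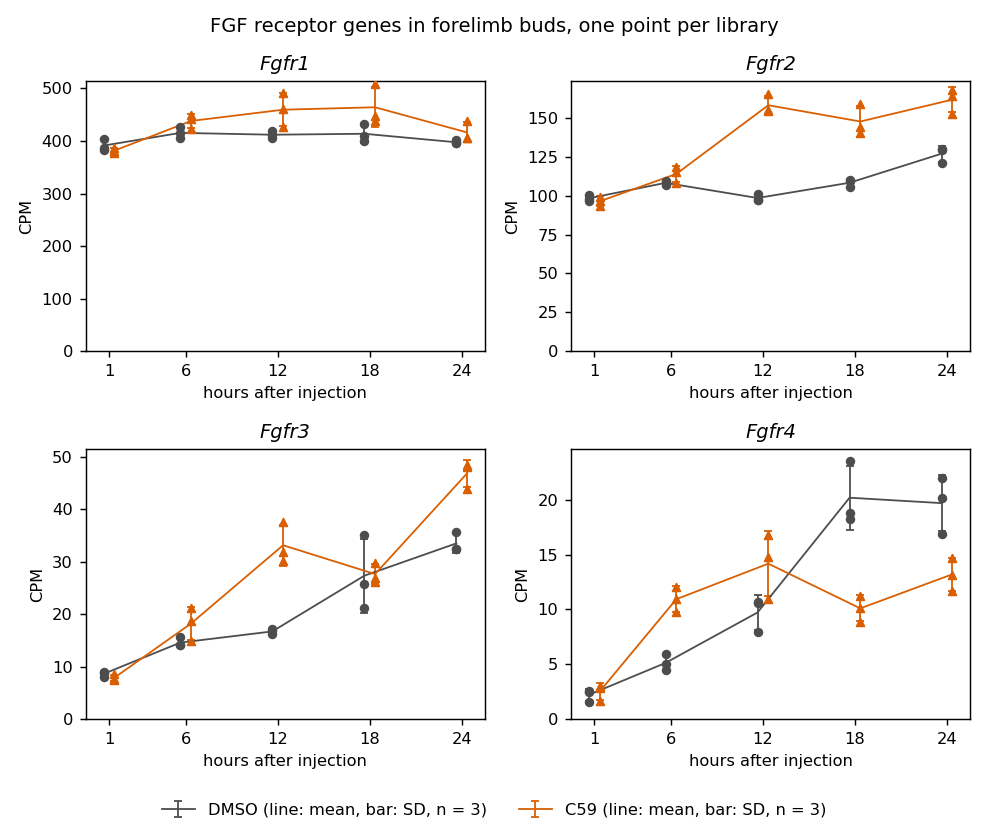
CPM (vertical axis, linear from 0) of the 4 receptor genes in every library against hours after injection (horizontal axis), with circles for DMSO, triangles for C59, lines through group means and SD bars (n = 3). *Fgfr2* and *Fgfr3* in C59 lay above DMSO at 12 and 24 h, while *Fgfr4* in C59 lay above DMSO at 6 and 12 h and below it at 18 and 24 h.

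Per length, *Fgfr1* led in every group, at 69.7 to 91.9 FPKM as group means. At 1 h in DMSO the order below it was *Fgf8* (25.2 FPKM), *Fgfr2* (17.9), *Fgf10* (6.00), *Fgfr3* (1.67), *Fgf9* (1.22), *Fgf4* (0.734), *Fgfr4* (0.472), *Fgf12* (0.339) and *Fgf17* (0.331), and only the last 3 overlapped their neighbors. At 24 h in DMSO *Fgfr2* (24.6 FPKM) and *Fgfr3* (7.30) followed *Fgfr1*, and *Fgf10* (5.62), *Fgf9* (4.73), *Fgf8* (4.47) and *Fgfr4* (4.32) came next, of which *Fgf9* overlapped *Fgf8* and *Fgf8* overlapped *Fgfr4*. In C59 at 12 h *Fgf8* (1.54 FPKM) had dropped below *Fgf9* (2.29), without overlap. The receptors summed to 132 ± 9.02 FPKM in C59 at 12 h and 101 ± 1.80 in DMSO, and *Fgfr1* held 68.8% ± 0.639 of that sum against 76.4% ± 0.643, the rest shifting mostly to *Fgfr2* (23.6% ± 0.672 against 18.2% ± 0.237).

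To set the C59 effects against normal development, DMSO limb buds of 24 h were compared with those of 1 h. These libraries also serve as controls above, so the comparisons are not independent. Of the 10 genes 8 passed, 5 higher and 3 lower, and 5 changed by more than 1 on the log2 scale, while 30.2% of all genes were higher, 29.2% lower and 12% changed by that much. *Fgf4* fell to 3.11% of its level (-5.01 ± 0.43, adjusted p 1.95e-07) and *Fgf8* to 18.3% (-2.45 ± 0.10, adjusted p 6.95e-11). *Fgfr4* rose 8.79-fold (3.14 ± 0.16, adjusted p 8.26e-10), *Fgfr3* 3.89-fold (1.96 ± 0.09, adjusted p 1.24e-10) and *Fgf9* 3.59-fold (1.84 ± 0.13, adjusted p 2.48e-08).

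The smaller developmental changes were those of *Fgf12* (0.69 ± 0.24, adjusted p 0.0227), *Fgfr2* (0.37 ± 0.04, adjusted p 5.93e-06) and *Fgf10* (-0.18 ± 0.07, adjusted p 0.0377). Leaving out single libraries ended the call of *Fgf10* (DMSO 1 h replicate 2, adjusted p 0.068, and 3, 0.095; DMSO 24 h replicate 1, 0.115, 2, 0.0755, and 3, 0.0584) and of *Fgf12* (DMSO 1 h replicate 1, 0.0543, and 2, 0.0547; DMSO 24 h replicate 1, 0.118). On the log2(FPKM + 1) scale the values of *Fgf4*, *Fgfr4* and *Fgf12* were -0.76, 1.85 and 0.29. *Fgfr1* (0.02 ± 0.04, adjusted p 0.647) and *Fgf17* (-0.42 ± 0.37, adjusted p 0.344) did not pass. Side by side, the 12 h effect of C59 and the developmental change were -3.17 and -2.45 for *Fgf8*, 0.98 and 1.96 for *Fgfr3* and 0.68 and 0.37 for *Fgfr2*, but -0.58 and 1.84 for *Fgf9*.

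The feedback inhibitors and targets of FGF signaling fell together at 12 h. All 12 genes of the list passed as lower, against 25.5% of all genes, and their median log2 fold change was -0.71, against 0.017 over all genes. *Etv4*, an ETS transcription factor induced by FGF signaling, fell from 74.0 to 16.3 CPM (-2.18 ± 0.08, adjusted p 1.17e-07), *Spry4*, a Sprouty inhibitor, from 45.4 to 14.5 CPM (-1.64 ± 0.07, adjusted p 2.12e-07), and *Dusp6*, a MAP kinase phosphatase, from 245 to 102 CPM (-1.27 ± 0.05, adjusted p 1.64e-07). The smallest fall was that of *Spred3* (-0.27 ± 0.09, adjusted p 0.0273).

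At 6 h, when *Fgf8* and *Fgf4* were already low, only 3 of the 12 fell (*Dusp4*, *Etv4* and *Spry1*) and *Spry4* rose by 0.22, with a median of -0.03 and a background of 11.4% lower and 8.2% higher genes. *Dusp6* (-0.13) and *Etv5* (-0.02) did not pass at 6 h. The effect itself changed from 6 to 12 h for 11 of 12 genes, all downward, and from 12 to 18 h for 7 of 12, and from 18 to 24 h for 3 of 12, all upward, against 18.1%, 8.49% and 6.96% of all genes in either direction. At 18 h 4 of 12 were still lower (*Etv4*, *Spry4*, *Dusp6* and *Etv5*), against 3.62% of all genes, and at 24 h *Il17rd* was lower and *Spry1* higher. Without C59 18 h replicate 3 the number lower was 6, and the changes from 12 to 18 and from 18 to 24 h passed for 8 and 6. Without DMSO 18 h replicate 1 these numbers were 1 (*Etv4*, -0.96, adjusted p 0.0186), 6 and 3.

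**Figure D5:**
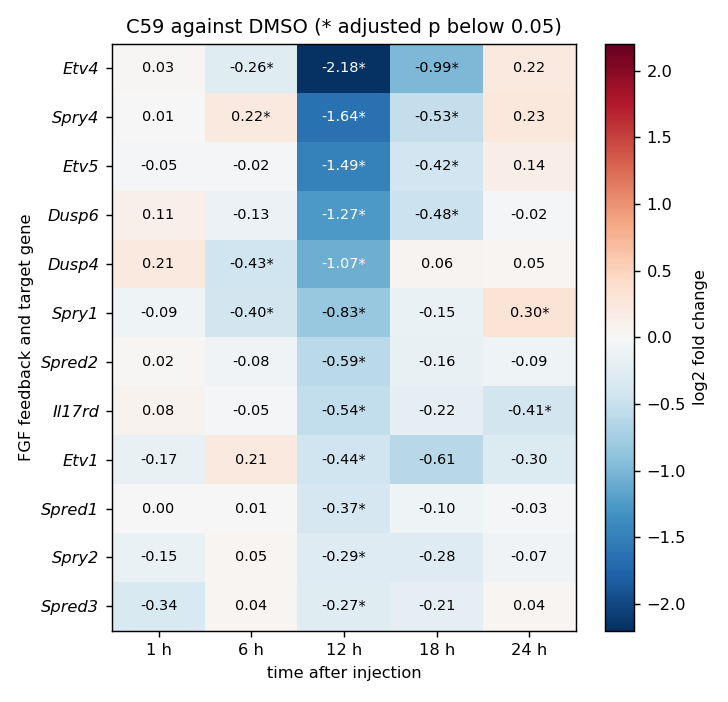
Log2 fold change of C59 against DMSO for the 12 FGF feedback and target genes (rows) at each time after injection (columns), with blue for lower and red for higher in C59 and an asterisk for an adjusted p below 0.05. The 12 h column is blue throughout, from -2.18 for *Etv4* to -0.27 for *Spred3*, and the 1 h column has no asterisk (0 of 12 passed, 3 at an unadjusted p below 0.05).

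Genes of the signal relay moved little. Of 18 genes from *Frs2* to *Mapk3*, none passed at 1 or 18 h (5 and 1 at an unadjusted p below 0.05), and 3, 7 and 1 passed at 6, 12 and 24 h. These shares of the 18 relay genes lay near or below those of all genes, which were 8.2% higher and 11.4% lower at 6 h, 22% and 25.5% at 12 h and 2.88% and 3.56% at 24 h. Without C59 18 h replicate 3, 2 passed at 18 h (*Sos1* and *Gab1*, both higher). The largest change was that of *Gab1*, a docking protein of receptor tyrosine kinases, at 12 h (104 against 68.2 CPM, 0.60 ± 0.05, adjusted p 4.96e-06), and the 5 relay genes that fell at 12 h, among them *Ptpn11* (-0.25) and *Map2k2* (-0.26), fell by less than 0.3.

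Among coreceptors, *Fgfrl1*, a receptor without a kinase domain, was higher at 12 h (111 against 88.8 CPM, 0.31 ± 0.09, adjusted p 0.0153), 18 h (0.41 ± 0.10, adjusted p 0.0386, which was 0.018 without C59 18 h replicate 3 and 0.0701 without DMSO 18 h replicate 1) and 24 h (0.23 ± 0.06, adjusted p 0.0485). *Flrt2*, a membrane protein that binds FGF receptors, rose by 0.42 at 6 h and 0.82 at 12 h, and *Flrt3* fell by 0.24 and 0.19. Of the heparan sulfate genes 12 were tested, of which none passed at 1 h (1 at an unadjusted p below 0.05), 2 fell at 6 h, and 4 rose and 4 fell at 12 h. The number that rose was 2 at 18 h and 1 at 24 h. Among all genes 11.4% were lower at 6 h, 22% higher and 25.5% lower at 12 h, and 3.46% and 2.88% higher at 18 and 24 h, so the counts at 6 and 12 h lay near the background. Without C59 18 h replicate 3, 3 genes rose at 18 h, and without DMSO 18 h replicate 1, 0 passed (3 at an unadjusted p below 0.05). *Sulf1*, a sulfatase that edits heparan sulfate outside the cell, stood at 243 against 64.7 CPM at 12 h (1.91 ± 0.12, adjusted p 1.36e-06), and *Sdc1*, a heparan sulfate carrier of epithelia, at 226 against 347 CPM (-0.62 ± 0.05, adjusted p 8.04e-06). The study also placed *Sulf1* in its panels.

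The other counted *Fgf* genes were mostly rare. *Fgf18* was the most abundant, with group means of 2.99 to 20.9 CPM, and it did not pass at any time after C59 although it rose during development (20.3 against 3.28 CPM, 2.61 ± 0.13, adjusted p 3.9e-10). Of the counted *Fgf* genes outside the 10, *Fgf7* (2.06 against 1.07 CPM, 0.92 ± 0.34, adjusted p 0.0454) and *Fgf11* (4.67 against 3.09 CPM, 0.59 ± 0.22, adjusted p 0.0442) were higher at 12 h, and none passed at 1, 6, 18 and 24 h (0, 2, 1 and 1 at an unadjusted p below 0.05). *Fgf20* (8 counts over all 30 libraries) and *Fgf21* (6 counts) were barely detected.

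The genes with the most similar pattern over the 30 libraries were sought among 12541 protein-coding genes by Pearson correlation of log2 CPM, as a description, since the libraries share time and treatment groups. For *Fgf8* they were *Mcm3* (0.968), *Slc7a6* (0.966) and *Chaf1b* (0.965), for *Fgfr3* *Islr* (0.976), *Nog* (0.971) and *Col9a3* (0.97), for *Fgfr2* *Tsc22d1* (0.927), *Papss1* (0.918) and *App* (0.917), and for *Fgf10* *Mtf2* (0.882), *Slc38a2* (0.876) and *Tut4* (0.872). Among the FGF genes themselves, *Fgf4* and *Fgf8* varied together (0.80), as did *Fgf9* and *Fgfr4* (0.79), while *Fgf8* and *Fgfr2* varied inversely (-0.82).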

How the data were processed

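PolyA RNA was sequenced as paired reads. Per the study's methods, the authors trimmed reads with Cutadapt 1.16, aligned them to mm10 with STAR 2.7.0e and deposited raw counts per gene and FPKM values per gene, the latter estimated by Cufflinks 2.2.1 without strand. The setting of strand for the counts is not given in the sources used here. Groups followed the titles of the labels. The FGF genes and all gene lists were chosen with earlier results of these data known. Any listed gene that passed a test, and the highest and lowest of a list, could be named.

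The deposited counts of 20569 protein-coding autosomal genes were filtered (filterByExpr, minimum count 10, minimum total 15), TMM-normalized and tested per time point with 3 against 3 libraries in edgeR 4.0.16 (R 4.3.3, quasi-likelihood, Benjamini-Hochberg). SE was the log2 fold change divided by the square root of F. Changes of the effect were interaction contrasts over 12 libraries. DESeq2 1.42.0, limma 3.58.1 on log2 FPKM, other scalings, filters and designs were alternatives. The procedure was tested on simulated data. Each condition drew on several litters per the study's methods, but no label ties a library to a litter, so p-values measure the spread between these libraries. Counts of 18188636 to 38974885 per library set the precision, and the limit for a count of 0 covers counting error only. Promoter windows came from RefSeq (GRCm38.p6), and gene positions from the deposited FPKM table.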

Additional observations from a re-analysis of the deposited data

Results flagged for a closer look

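The effect of C59 on single FGF genes differed between neighboring time points in 9 tests of the difference itself (edgeR interaction contrasts, 12 libraries each, adjusted over all genes). From 6 to 12 h the log2 effect changed by -1.59 ± 0.21 SE for *Fgf8* (adjusted p 0.00011), by -0.49 ± 0.12 for *Fgf10* (0.00988), by 0.61 ± 0.06 for *Fgfr2* (1.12e-05) and by 0.66 ± 0.16 for *Fgfr3* (0.00897). From 12 to 18 h it changed by 2.47 ± 0.30 for *Fgf8* (0.000273), by 3.52 ± 0.85 for *Fgf4* (0.0211), by -0.95 ± 0.21 for *Fgfr3* (0.013) and by -1.51 ± 0.24 for *Fgfr4* (0.00194). From 18 to 24 h it changed by 1.19 ± 0.29 for *Fgf8* (0.0238). The 12 and 18 h libraries enter neighboring contrasts, so these tests are not independent. The last call was lost without DMSO 18 h replicate 1 (adjusted p 0.0556) or 3 (0.0599), C59 18 h replicate 2 (0.0543), DMSO 24 h replicate 1 (0.0705) or 3 (0.0607) and C59 24 h replicate 1 (0.0515) or 2 (0.0751). That of *Fgf4* was lost without DMSO 12 h replicate 1 (0.063) or 3 (0.0559), C59 12 h replicate 3 (0.0538) or DMSO 18 h replicate 2 (0.0559).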

How the results depend on the processing

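No direction of a called FGF gene reversed under any alternative that was run. Without a minimum fold change the called genes numbered 2, 7, 5 and 4 at 1, 12, 18 and 24 h and 8 in the DMSO comparison of 24 with 1 h. With the fold rule, DESeq2, upper-quartile factors, no filter and all 30 libraries in one fit each called 2 at 12 h, no filter and all 30 libraries called 1 at 24 h, and limma on log2(FPKM + 1) called 1 at 6 h and 0 at 18 h. At 1 h the genes that passed numbered 1 with limma on either FPKM scale and 0 with all 30 libraries in one fit. With the replicate block 1 passed at 1 h and 2 at 18 h, and 0 were called with the fold rule at 18 h. The numbers did not pair the libraries (correlations of same-numbered deviations -0.177 to 0.133). Leaving out 1 library, 0 to 2 passed at 1 h and 4 to 8 at 12 h (4 without DMSO 12 h replicate 3), 1 to 6 at 18 h and 2 to 5 at 24 h (2 without DMSO 24 h replicate 1) and 0 to 1 for the change from 18 to 24 h, and the fold rule called 1 to 3 at 12 h, 0 to 2 at 18 h and 0 to 1 at 24 h. Among single genes, *Fgf8* at 18 h lost its call with all genes of the table (adjusted p 0.0502) and with limma (0.0651 and 0.0634), and *Fgf10* at 12 h with upper-quartile factors (0.0811) and limma (0.148 and 0.142). *Fgf10* at 18 h passed with DESeq2 (0.032) and all 30 libraries (0.000847). In all, 1334 gene results stayed on their side of the threshold, 81 lost a call and 11 gained one. The cause was not tested. Counts of 0 to 39 for *Fgf4* from 6 h on limit its precision. The gene and marker lists at 18 h with an outlying library of that time left out were computed after the data had been seen.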

Other observations

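*Fgf13* and *Fgf16* lie on the X chromosome and were read only from the FPKM table, which was not tested. *Fgf13*, an intracellular FGF homologous factor like *Fgf12*, had DMSO means of 3.61 ± 0.524 FPKM (SD, n = 3) at 1 h and 7.33 ± 0.935 at 24 h, and C59 means of 3.45 ± 0.403 and 6.88 ± 0.696. *Fgf16* was listed at 0 in all libraries up to 6 h, and its highest value was 0.101 FPKM in DMSO at 24 h.

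Counted *Fgf* genes outside the 10 described here were mostly higher in the older DMSO limb buds. Of 8 tested, 6 rose from 1 to 24 h and none fell, where 30.2% of all genes were higher and 29.2% lower, among them *Fgf18* (2.61), *Fgf7* (2.83), *Fgf11* (2.06) and *Fgf2* (1.46, all as log2 fold changes by edgeR), and the median was 2.33 against -0.002 over all genes. *Fgf5* was highest in C59 at 6 h (mean of 4.54 CPM) and lowest in C59 at 24 h (1.45 CPM). The DMSO means of these times were 2.84 and 1.7 CPM. Neither difference passed (0.68 ± 0.27 and -0.25 ± 0.3 SE by edgeR, adjusted p 0.0899 and 0.677).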
